A study of Mus musculus with 2 samples.

Results

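The actin cytoskeleton and motility genes described here are a list of 42 genes, from the actins themselves to the proteins that branch, cap, pull and anchor actin filaments. Every probe of the deposited value table whose annotated gene symbol was among the 42 was taken. That gave 58 of 11866 probes, for 36 of the 42 genes, out of 8116 genes with a named probe. Actr2, Arpc2, Arpc3, Capza2, Flna and Tpm4 had no such probe and are not analysed here. The study set type 1 invariant natural killer T (NKT) cells against conventional CD4 T cells, both from lymph nodes of mice labelled as female and kept free of specific pathogens. Invariant NKT cells see lipid antigens on CD1d through a nearly fixed T cell receptor alpha chain, and conventional CD4 T cells see peptides on MHC class II. Cells were purified with magnetic beads or by fluorescence sorting, and total RNA was measured on 1 Illumina bead array per population. No strain, age or treatment of the mice is stated in the labels used here.

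Actin monomers polymerise into filaments that push the front of a crawling T cell forward and build the contact it makes with an antigen-presenting cell. The Arp2/3 complex starts new branches on existing filaments when proteins of the WASP and WAVE families switch it on, whereas profilin, cofilin and the beta-thymosins control the supply of monomers. Myosin II contracts filaments to move the cell body, and talin, vinculin, ezrin and moesin tie them to integrins and to the plasma membrane.

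With 1 array per group, no value below has a replicate and no test between the groups was possible. The arrays are called the NKT-labelled library and the CD4-labelled library, after the cell type in the labels. Signals are log2 values, and a difference is the NKT-labelled value minus the CD4-labelled value. A probe was called at 2-fold or more, a difference of 1 or -1. The detection level was a log2 signal of 7.83. Where only 1 library reached it, the call used the bright value against the higher of that level and the dim value. Since these are RNA pools of purified cells, fewer cells of a type and less RNA per cell cannot be told apart.

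Some values went against the labels. The CD8 co-receptor gene Cd8b1 had log2 signals of 9.33 in the NKT-labelled library and 15.60 in the CD4-labelled library. The Y-linked gene Eif2s3y reached 11.55 in the CD4-labelled library, with a difference of -2.55, although the mice were labelled as female. It lay above the detection level in both libraries. Against a source labelled as lymph node, hepatocyte genes were 2-fold or more higher at 4 of 4 measured members in the NKT-labelled library. Their summed linear signals were 9325 there and 603 in the CD4-labelled library, where all 4 lay below the detection level. These sums include background. Of the genes listed for invariant NKT cells (Ifng, Tbx21, Klrb1c and Il2rb), 4 of 4 were 2-fold or more higher in the NKT-labelled library. There 3 of 3 measured naive T cell genes were lower, and the 4 measured T cell genes were within 2-fold. The marker lists were chosen with earlier results of these data known, so these counts are no independent check of the labels. A second deposited table, of non-normalized signals, did not hold these differences. Over the 58 probes the log2 ratio of its second to its first column ran only from -0.20 to 0.27 (SD 0.102), against an SD of 1.00 for the differences in the value table. The value table of the CD4-labelled library followed the first of those columns in rank (Spearman's rank correlation 1 across all probes), but that of the NKT-labelled library followed the second at a rank correlation of 0.822, no higher than the 0.823 between the 2 columns of the value table itself. Each direction below therefore rests on the value table and its labels, and neither library can be left out.

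At single probes, beta-actin (Actb), coronin 1A (Coro1a) and the giant scaffold protein Ahnak had the largest excess in the NKT-labelled library among the 42 genes. Vimentin (Vim), the filament elongator Evl and the Arp2/3 subunit Actr3 had the largest deficit. Of the 58 probes 56 reached the detection level in 1 or both libraries, covering all 36 genes, and 52 did so in both. In the NKT-labelled library 10 of the 56 were 2-fold or more higher (17.9%), where 9.93% of the 9918 detected named probes were. Another 4 were 2-fold or more lower (7.14%), where 9.62% of all were. The other 42 stayed within 2-fold. Differences above 0 numbered 29 and below 0 numbered 27, and the median was 0.08, against -0.04 for all detected named probes. Without the probes of Actb, 7 probes were higher and 4 lower, and the median was -0.07. At the brightest probe of each gene, 7 of 36 genes were higher and 4 lower, where 9.34% and 10.2% of the 7278 detected genes were.

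**Figure D1:**
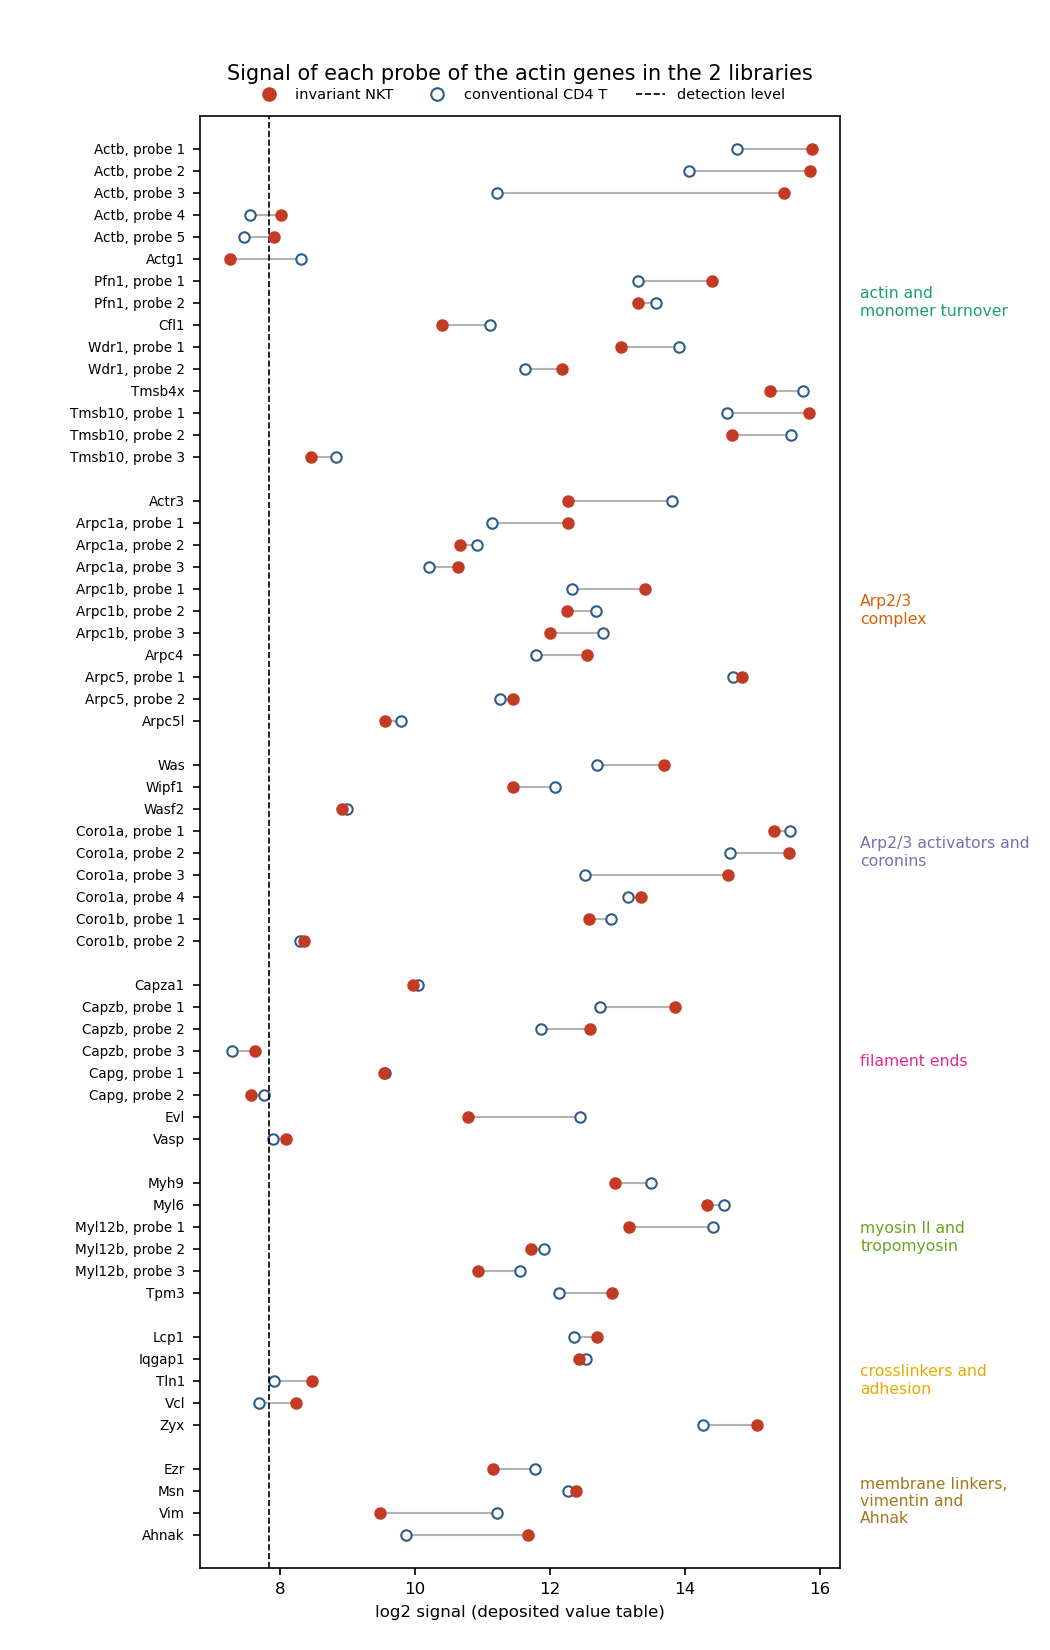
Log2 signal (x axis) of each of the 58 probes (y axis, grouped by role, probes of a gene numbered from the brightest) in the NKT-labelled library (filled) and the CD4-labelled library (open), with the detection level of 7.83 dashed. Actb probe 3 has the widest gap, 15.47 against 11.21, and most other pairs lie close together.

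**Figure D2:**
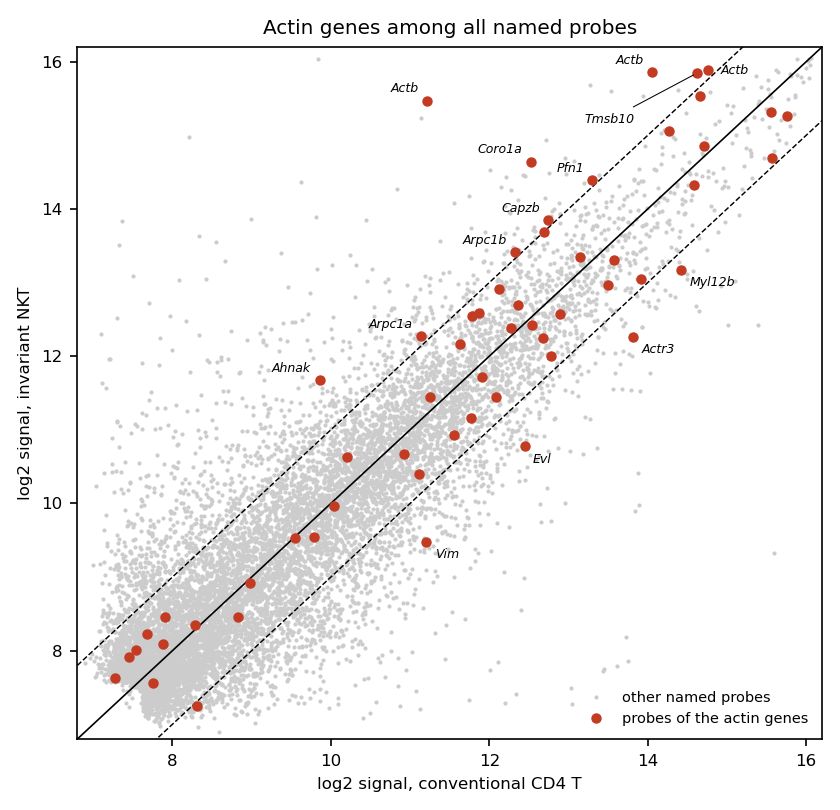
Log2 signal in the NKT-labelled library (y axis) against the CD4-labelled library (x axis), with the 58 actin gene probes in red over the other named probes in grey, the line of equality solid and the 2-fold lines dashed. Names mark the 10 called probes above and the 4 called probes below, and 42 of 56 detected probes count as within 2-fold, among them Actg1, plotted at its measured -1.05 but called at its bound of -0.48.

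Many actin genes are known targets of serum response factor, which binds the CArG box and whose myocardin-related coactivators are held back by free actin monomers. Promoters of 300 bases, 250 before and 50 after the start site, were given by RefSeq (GRCm38.p6) for 39 of the 42 genes. Actb, Arpc5l and Coro1b were not among them. A CArG box, which reads the same on both strands, was present in 4 of the 39 (10.3%), against 1.81% of the 27025 genes with a promoter in that table. They are shown to set the shared element beside the differences of their genes, with the box in capitals and up to 40 bases on each side.
Actg1: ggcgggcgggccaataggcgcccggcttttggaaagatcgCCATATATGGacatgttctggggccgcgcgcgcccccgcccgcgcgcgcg
Vcl: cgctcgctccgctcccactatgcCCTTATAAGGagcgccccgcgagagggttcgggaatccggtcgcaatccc
Myl6: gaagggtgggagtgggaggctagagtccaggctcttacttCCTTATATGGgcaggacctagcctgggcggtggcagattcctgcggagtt
Arpc4: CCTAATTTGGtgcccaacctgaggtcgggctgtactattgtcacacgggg
The window of Actg1 is chr11:120348536-120348625 on the minus strand, and its box begins 90 bases before the start site. That of Vcl is chr14:20929148-20929220 on the plus strand, with the box 227 bases before the start. For Myl6 it is chr10:128493010-128493099 on the minus strand, 50 bases before 1 of its start sites. For Arpc4 it is chr6:113377863-113377912 on the plus strand, 250 bases before the start. The probes of these 4 genes differed in both directions, as given under their roles, and 0 of them reached 2-fold at its bound. With background subtracted the dim probes of Actg1 and Vcl differed by -3.23 and 1.80. A match is a description of the letters, not of a bound site.

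The largest single difference belonged to Actb, which encodes beta-actin, a main non-muscle actin of lymphocytes, and had 5 probes. Probe ILMN_2698799 had log2 signals of 15.88 in the NKT-labelled library and 14.77 in the CD4-labelled library, a difference of 1.12. At probe ILMN_1377923 the signals were 15.85 and 14.05, a difference of 1.80. Probe ILMN_2617433 had 15.47 and 11.21, a difference of 4.26 or 19.1-fold. All 3 of these bright probes were higher in the NKT-labelled library, but by sizes that ranged from 2.17-fold to 19.1-fold. The 15.88 lay close to the highest value on the table, 16.07, where the scale leaves little room. The remaining probes, ILMN_2846865 with 8.01 against 7.54 and ILMN_2588055 with 7.91 against 7.46, reached the detection level only in the NKT-labelled library. They exceeded that level by 0.17 and 0.08, so they were not called. Gamma-actin (Actg1), the other non-muscle actin, went the opposite way at its 1 probe. It had 7.25 in the NKT-labelled library, below the detection level, and 8.31 in the CD4-labelled library. It was at least 1.39-fold lower and not called. The 2 actins are near-identical in coding sequence, and which transcripts each probe reads was not analysed here.

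Profilin 1 (Pfn1), which loads monomers with ATP and feeds them to growing ends, had 1 called probe, at 14.40 in the NKT-labelled library and 13.30 in the CD4-labelled library, a difference of 1.09. Its other probe had 13.31 and 13.58, a difference of -0.27. The beta-thymosins hold monomers in reserve. Tmsb10 split in the same manner, with 15.85 against 14.62 at probe ILMN_3067068 (1.22), 14.69 against 15.57 at ILMN_3145331 (-0.88) and 8.45 against 8.82 at ILMN_1225332 (-0.37). Only the first of these was called. Tmsb4x, the more widely studied thymosin, had 15.26 in the NKT-labelled library and 15.76 in the CD4-labelled library. Its difference of -0.49 stayed within 2-fold. Cofilin 1 (Cfl1), which severs old filaments, had 10.40 against 11.11, a difference of -0.72. Wdr1, a cofactor of cofilin, had 13.05 against 13.91 at its brighter probe (-0.87) and 12.17 against 11.63 at the other (0.54). In all, 5 of the 15 probes of this role were higher (33.3%) and 0 lower, where 9.93% and 9.62% of all detected named probes were. Of the 5 called probes 3 belong to Actb. The median of the role was 0.45. That median became 0.08 with probes of 1 library at their bound and -0.43 without Actb.

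**Figure D3:**
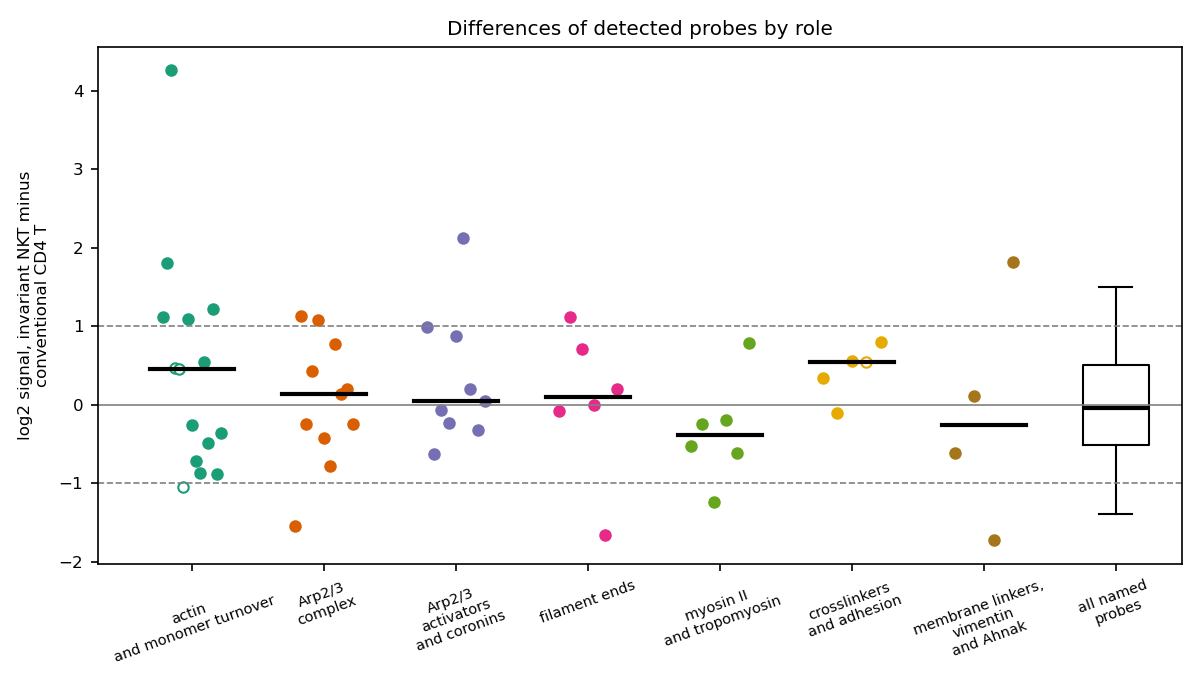
Difference in log2 signal, NKT-labelled library minus CD4-labelled library (y axis), of each detected probe by role (points; open where only 1 library reached the detection level), with role medians as black bars. The box at the right gives the median and quartiles of all 9918 detected named probes, with whiskers at the 5th and 95th percentiles, and dashed lines mark 2-fold. Role medians run from -0.39 to 0.55.

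Subunits of the Arp2/3 complex, the branching machine, did not share a direction. Of its 9 listed genes 6 had a probe. Actr3, 1 of the 2 actin-related subunits that seed the branch, had 12.27 in the NKT-labelled library and 13.81 in the CD4-labelled library. It was 2.92-fold lower, a difference of -1.54. Arpc4, a core subunit that holds the complex together, had 12.55 and 11.79, a difference of 0.77. Arpc5 was near equal at both probes, with 14.85 against 14.72 (0.14) and 11.45 against 11.25 (0.20), and its relative Arpc5l had 9.55 against 9.79 (-0.24). Arpc1a and Arpc1b, alternative forms of the same subunit, each had 1 called probe among 3. For Arpc1a the signals were 12.27 against 11.14 (1.13), 10.67 against 10.92 (-0.25) and 10.63 against 10.20 (0.43). Arpc1b had 13.41 against 12.33 (1.08), 12.25 against 12.68 (-0.43) and 12.00 against 12.78 (-0.78). Neither form was thus higher at all of its probes. Over the 11 probes 2 were higher (18.2%) and 1 lower (9.09%), where 9.93% and 9.62% of all detected named probes were. The median was 0.14.

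Among the activators, Was, which encodes the blood cell protein whose loss causes Wiskott-Aldrich syndrome in humans, had 13.69 in the NKT-labelled library and 12.70 in the CD4-labelled library. Its difference of 0.99 lay just short of 2-fold. Wipf1, the partner that protects WASP from degradation, had 11.45 against 12.08, a difference of -0.63, and Wasf2, a WAVE protein, had 8.91 against 8.99 (-0.07). Coronin 1A (Coro1a), which T cells need for survival and which acts on Arp2/3 and cofilin, had 4 probes. They read 15.32 against 15.56 (-0.24), 15.54 against 14.66 (0.88), 14.64 against 12.52 (2.12) and 13.35 against 13.15 (0.20). A 4.35-fold excess was thus seen at 1 probe, and the other three stayed within 2-fold. Coro1b had 12.58 against 12.90 (-0.32) and 8.34 against 8.29 (0.05). This role had 1 probe of 9 higher (11.1%) and 0 lower, where 9.93% and 9.62% of all detected named probes were. The median was 0.05.

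Filament ends are sealed by capping protein, a dimer of an alpha and a beta chain, and are kept growing by the Ena/VASP proteins. The beta chain Capzb had differences above 0 at both detected probes, with 13.85 in the NKT-labelled library against 12.74 in the CD4-labelled library (1.11) and 12.59 against 11.87 (0.71). Only the first reached 2-fold, and its remaining probe lay below the detection level in both libraries. The alpha chain Capza1 was near equal, at 9.96 against 10.05. Evl, the Ena/VASP member, had 10.78 against 12.45 and was 3.17-fold lower, a difference of -1.66. Vasp itself had 8.09 against 7.89 (0.20), close to the detection level. Capg, a capping protein of the gelsolin family, had 9.54 against 9.55 (-0.01), and its other probe was undetected in both libraries. Of the 6 detected probes 1 was higher and 1 lower (16.7% each), where 9.93% and 9.62% of all detected named probes were. The median was 0.10.

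Among contractile genes 1 of 6 probes reached 2-fold, on the lower side. The heavy chain Myh9 had 12.97 in the NKT-labelled library and 13.50 in the CD4-labelled library, a difference of -0.53. The essential light chain Myl6 had 14.33 against 14.58 (-0.25). The regulatory light chain Myl12b had differences below 0 at all 3 probes, with 13.17 against 14.42 (-1.25), 11.71 against 11.91 (-0.20) and 10.94 against 11.55 (-0.62). Only the brightest of these reached 2-fold, at 2.37-fold. Myl12b has a near-identical relative, Myl12a, whose transcript may reach the same probes. Tropomyosin 3 (Tpm3), which winds along filaments and steers myosin to them, had 12.92 against 12.13 and a difference of 0.79. Differences were below 0 at 5 of 6 probes, 3 of which belong to Myl12b, where 5145 of the 9918 detected named probes were. The median was -0.39, with 1 probe called lower (16.7%) and 0 higher, where 9.62% and 9.93% of all detected named probes were.

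Proteins that bundle filaments or couple them to integrins were within 2-fold at all 5 measured probes. Of the 9918 detected named probes, 7979 were. Zyxin (Zyx), which gathers at strained filaments, had 15.06 in the NKT-labelled library and 14.26 in the CD4-labelled library (0.80). L-plastin (Lcp1), the bundling protein of leukocytes, had 12.70 against 12.36 (0.34), and the scaffold Iqgap1 had 12.43 against 12.53 (-0.10). Talin 1 (Tln1), which activates integrins, had 8.46 against 7.90 (0.56), and vinculin (Vcl) had 8.23 against 7.68 (0.55). Vcl reached the detection level only in the NKT-labelled library, at least 1.32-fold above it. Differences were above 0 at 4 of 5 probes, where 4770 of the 9918 detected named probes were. The median was 0.55, or 0.40 with Vcl at its bound. With background subtracted the dim probes of Tln1 and Vcl differed by 1.36 and 1.80, past 2-fold.

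Membrane linkers and the remaining scaffolds split widely. Ahnak, a giant scaffold protein under the plasma membrane, had 11.67 in the NKT-labelled library and 9.86 in the CD4-labelled library, a 3.52-fold excess (1.82). Vimentin (Vim), the intermediate filament of lymphocytes, had 9.48 against 11.21 and was 3.31-fold lower (-1.73). Of the linkers proper, ezrin (Ezr) had 11.15 against 11.77 (-0.62) and moesin (Msn) had 12.38 against 12.27 (0.11). Neither linker reached 2-fold. Each of the 4 genes had 1 probe. Of these probes 1 was called higher and 1 lower (25.0% each), where 9.93% and 9.62% of all detected named probes were. The median was -0.25.

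Probes of the same gene often disagreed, which limits each single value above. Among the 11 genes with 2 or more probes detected in both libraries, 8 had probes whose differences lay more than 1 apart (72.7%), and in 7 they had opposite signs (63.6%). Over all 1436 such genes, 26.5% were more than 1 apart and 38.0% had opposite signs. Restricted to the 2 brightest probes of each gene, 7 of the 11 actin genes and 287 of the 1436 were more than 1 apart. The within-gene SD of the difference was 0.96 for the actin genes, 0.83 without Actb and 0.61 for all 1436 genes, which averaged 2.64, 2.60 and 2.32 probes a gene in that order. Of the 8 called genes with more than 1 detected probe, 0 had every detected probe called in the same direction, although all 3 Actb probes detected in both libraries were called higher. Actr3, Evl, Vim and Ahnak were called from a single probe each. Just inside the 2-fold line lay Arpc1b (1.08), Pfn1 (1.09) and Capzb (1.11), and just outside it Was (0.99) and probes of Tmsb10 (-0.88) and Coro1a (0.88), gaps smaller than that within-gene SD.

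**Figure D4:**
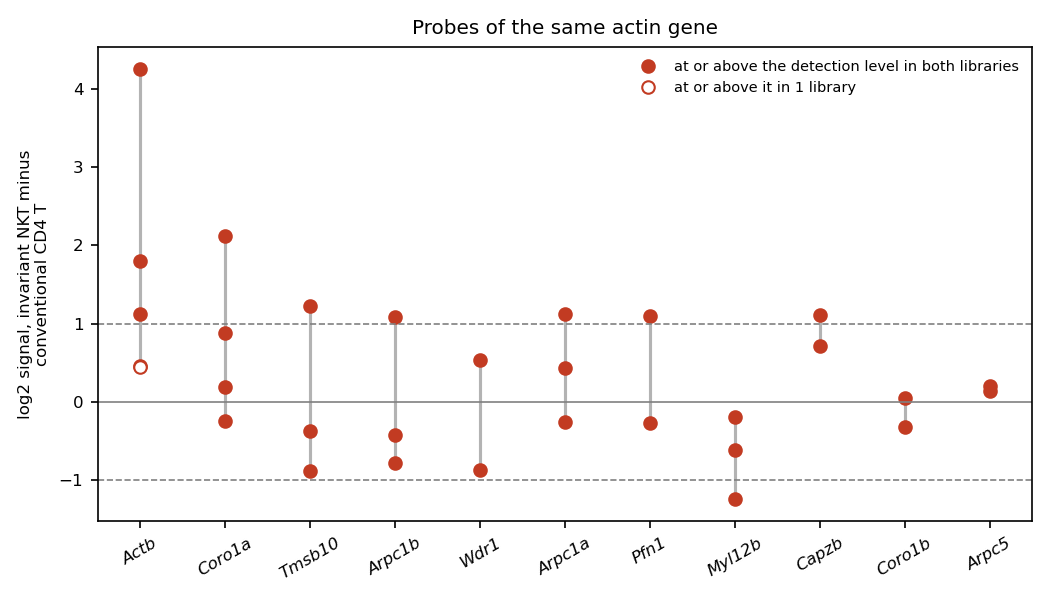
Difference in log2 signal, NKT-labelled library minus CD4-labelled library (y axis), of each detected probe of the 11 genes with more than 1 (x axis, ordered by the gap between their probes), filled where both libraries reached the detection level and open where 1 did, with 2-fold lines dashed. Actb probes span from 0.45 to 4.26, and Arpc5 probes from 0.14 to 0.20.

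A wider list of 127 other actin pathway genes was set beside these, of which 84 had a probe and 82 were detected. At the brightest probe 9 were 2-fold or more higher and 12 lower in the NKT-labelled library, with a median of -0.21, where 9.34% and 10.2% of all detected genes were called. Cap1, which recycles monomers together with cofilin, had 12.19 in the NKT-labelled library and 9.14 in the CD4-labelled library, a difference of 3.04. The crosslinker Actn4 had 12.20 against 9.91 (2.28), with its 3 probes all higher, from 1.49 to 2.28. Myo1f, an unconventional myosin of leukocytes, had 12.44 against 10.48 (1.96).

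The related crosslinker Actn1 lay on the other side, below the detection level in the NKT-labelled library and at 13.61 in the CD4-labelled library, at least 55.0-fold lower. Add3, an adducin that joins filaments to spectrin, had 11.77 against 14.03 (-2.26). Tiam1, an activator of Rac, had 8.20 against 10.06 (-1.86), and Ppp1cb, the catalytic subunit of myosin phosphatase, had 8.85 against 10.43 (-1.58). Actn4 and Actn1, the alpha-actinins of non-muscle cells, thus had opposite directions.

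**Figure D5:**
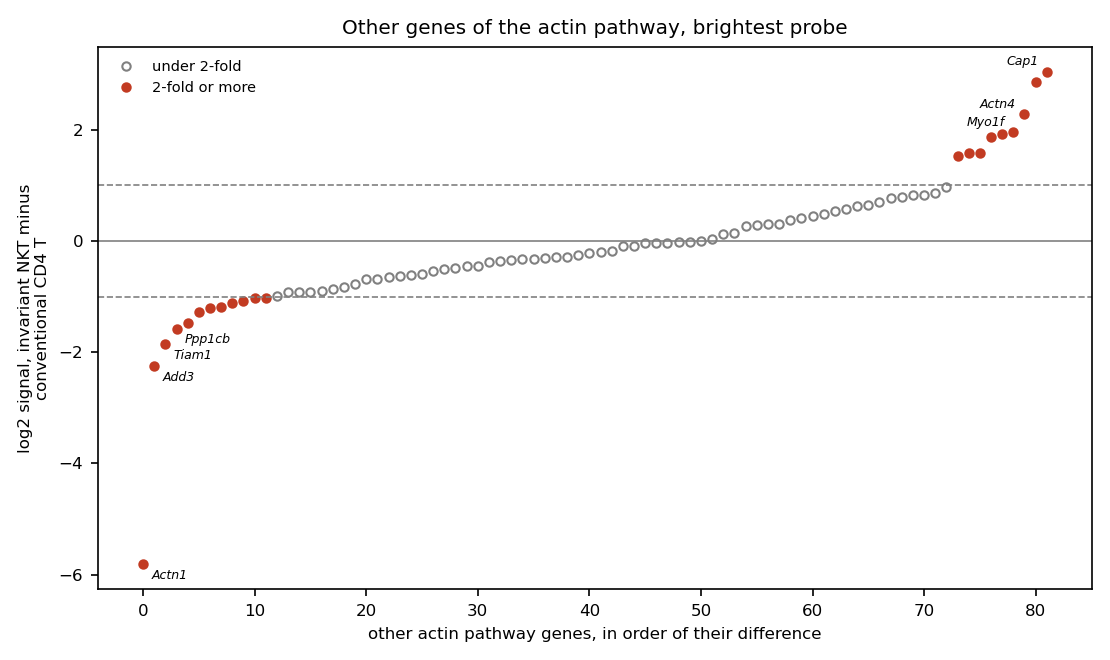
Difference in log2 signal, NKT-labelled library minus CD4-labelled library (y axis), of 82 other actin pathway genes at their brightest probe, in order of size (x axis, position in that order), with called genes filled, 2-fold lines dashed and 7 of the largest named. Measured differences run from -5.82 for Actn1 to 3.04 for Cap1.

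Genes listed for other cell types and for stress of isolation also differed between the libraries. Red cell genes were 2-fold or more higher at 3 of 3 measured members, with a summed linear signal of 74606 in the NKT-labelled library and 1241 in the CD4-labelled library. Of 4 measured monocyte and macrophage genes 2 were higher and 0 lower, with sums of 3374 and 821. Neutrophil genes were higher at 1 of 5 measured members, with sums of 2520 and 792. At the brightest probe, all 5 neutrophil genes lay below the detection level in the CD4-labelled library. So did 3 of the 4 monocyte and macrophage genes and 2 of the 3 red cell genes. In the NKT-labelled library 1 neutrophil gene and 1 monocyte and macrophage gene did. The sums include the background of such probes. B cell genes were higher at 0 and lower at 1 of 3, with sums of 781 and 1538, and the endothelial gene Pecam1 differed by -2.23. Genes listed for stress of isolation were higher at 4 of 7, with sums of 155627 and 63378. Fos (0.24), Dusp1 (0.82) and Jun (0.92) stayed within 2-fold. Whether isolation raised the others was not tested. The part of these cell types and of stress in the differences of the actin genes was not tested either. The smooth muscle genes Acta2 and Des and the platelet gene Itga2b lay below the detection level in both libraries.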

How the data were processed

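RNA of 2 purified mouse lymph node populations was measured on 1 Illumina bead array each, and groups follow the cell type in the labels. Per the submitters' processing notes GenomeStudio 2009.2 was used; the normalisation method was not given in the sources used here. A table that the authors deposited holds log2 values of 11866 probes, whose 2 columns share 1 distribution (sorted values within 0.0003, both medians 9.07), as quantile normalisation leaves them. The deposited non-normalized table holds linear intensity values of 25697 probes, each followed, per the file headers, by a detection p-value.

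The log2 value table was used, because its columns are named by sample. Detection p-values exist only for the other table, so the detection level was set at 7.83, the smallest log2 value among probes whose p in the first column was below 0.01, and was applied to both libraries, for the NKT-labelled one as an estimate. Gene names came from the platform annotation, with 1 symbol for 11155 probes, none for 711 and several for 0. All 58 probes matched RefSeq GRCm38.p6 gene identifiers. Levels of different probes were ranked only to order the probes of a gene by brightness, and summed only for the marker lists. Every difference is of a probe with itself, between the libraries. Calls were made by size, at 2-fold, with Python 3.11.15 and pandas 2.3.3, and the calling step was tested on simulated data. The number of arrays limits the precision.

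The 42 genes and all lists were chosen with earlier results of these data known. All 42 genes were named, each probe on its own, and of the wider list the 4 largest differences in each direction, of which 1 is not reported here. Alternatives were neqc of limma 3.58.1 (R 4.3.3, offset 16) on the non-normalized table, background subtraction with a floor of 16, another detection level, no or a stricter detection filter, centring, a 1.5-fold threshold and other rules for several probes of a gene. The alternative without Actb was added after seeing the data.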

Additional observations from a re-analysis of the deposited data

How the results depend on the processing

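With 1 array per group, no replicate could be left out, and no test was run. The 6 counts stayed within 1.5 times their values when the detection level was set at p under 0.05, when no detection filter or only probes detected in both libraries were used, and after centring on the median of all named probes. The 8 medians have no error of their own. None of them moved without the filter or at p under 0.05, and centring added 0.04. Over probes detected in both libraries the median of actins and monomer proteins was 0.14 in place of 0.45. With background subtracted that of crosslinkers and adhesion proteins was 0.80 in place of 0.55, 10 actin genes were higher in place of 7 and 5 lower in place of 4, and the wider list had 19 genes lower in place of 12. With the non-normalized table and neqc, all 6 counts of 2-fold calls became 0 and the crosslinker median became -0.055. In that setting Actb probes ILMN_2698799, ILMN_1377923 and ILMN_2617433 turned to -0.048, -0.020 and -0.0019, Pfn1 ILMN_2673211 to -0.059, Tmsb10 ILMN_3067068 to -0.12, Arpc1b ILMN_1227836 to -0.015 and Vim to 0.031. No probe of the 42 genes differed there by more than 0.54. The second column of that table did not follow the value table of the NKT-labelled library. At 1.5-fold, 16 probes of the actin genes were higher and 11 lower, in place of 10 and 4. At the brightest probe of each gene that threshold gave 11 higher and 8 lower in place of 7 and 4. In the wider list it gave 17 and 24 in place of 9 and 12. Shares over all detected named probes and genes are given for the main setting only. Whether counts under other settings hold an excess or deficit of the actin genes therefore cannot be told. When probes of a gene were averaged, 2 actin genes were higher in place of 7, and 7 genes of the wider list lower in place of 12. Without Actb the median of actins and monomer proteins was -0.43 in place of 0.45. The cause of these changes was not tested. With background subtracted 5 dim probes moved by more than the within-gene SD of 0.61. They were Actb ILMN_2846865 (to 2.23) and ILMN_2588055 (to 2.19), Actg1 (to -3.23), Tln1 (to 1.36) and Vcl (to 1.80). For Actb ILMN_2588055 and Actg1 the dimmer library was set at the floor of 16, which fixes the size of those differences. All 14 called probes kept their direction. Folds of dim probes are understated, since background remains in the values, and signals near the top of the scale leave little room for a difference. No paired analysis was possible because each group holds 1 array.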
